A study of Mus musculus with 7 samples.

Results

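Fibronectin, the product of Fn1, and the integrin chains that bind it were followed across libraries of crushed mouse retina given a control or a Tppp3 vector. The members were the rows of the count table named Fn1, Itga4, Itga5, Itga8, Itgav, Itgb1, Itgb3, Itgb5, Itgb6 and Itgb8, and all 10 were found among 25655 genes. Fn1 was chosen by its adjusted p for the group difference in these same libraries, and the integrin genes were chosen as chains known to bind its product. The group difference of Fn1 is therefore a description and supports nothing further.

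The libraries were made from poly(A) RNA of whole retina of wildtype C57BL/6 mice, taken 2 days after crush of the optic nerve. The control AAV2 group (3 libraries) had received an adeno-associated virus vector named by the labels as a CMV control, and the Tppp3 overexpression AAV2 group (3 libraries) the Tppp3 vector. Tppp3 encodes a tubulin polymerization-promoting protein, and the study asked how its overexpression bears on axon regrowth and ganglion cell survival. All retinas were injured and all had received a vector, so neither the injury nor the virus has a reference group here. The labels give no age and no sex, do not say which promoter drives Tppp3, and do not say whether each library came from another animal, so the p-values measure the spread between these libraries.

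Fibronectin is a large dimeric glycoprotein that cells secrete and pull into fibrils of the extracellular matrix. Integrins are receptors made of an alpha and a beta chain, and they tie such fibrils to the actin cytoskeleton through adaptors such as talin and kindlin. Alpha5, alpha8 and most alphaV integrins bind fibronectin at an arginine-glycine-aspartate (RGD) site in its cell-binding region, whereas alpha4 integrins bind a leucine-aspartate-valine (LDV) site in a segment that splicing can leave out. In the retina fibronectin is known from vascular basement membranes and the inner limiting membrane, and in axon growth studies it is a substrate that some neurons grow on when they carry the fitting integrin.

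The stretches that encode the sites are shown because they divide the receptors into an RGD group and an LDV group. Both come from Fn1 transcripts of GENCODE M21 (mouse build GRCm38), sense strand, with the codons of the site in capitals.
RGD site: gtcactggcCGTGGGGACagtccagcaagc
LDV site: ccagagatcTTGGATGTTccctccacagtt
Among the 7 protein-coding Fn1 transcripts of at least 7000 bases in that annotation, 7 held the RGD codons and 3 held the LDV codons in their reading frame. The deposited counts are per gene and do not separate these transcripts, so all Fn1 values below are sums over forms with and without the LDV site.

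Libraries held 10961443 to 21843892 gene counts, and the 3 control libraries were the shallowest. Of all genes, 14750 had enough counts to be tested with edgeR's quasi-likelihood test, and 2 of them (0.0136%) were lower and 0 higher with the Tppp3 vector at an adjusted p under 0.05. At an unadjusted p under 0.05, 524 genes were lower (3.55%) and 542 higher (3.67%) in the same test. DESeq2's Wald test placed 12 genes lower and 2 higher past the adjusted threshold, and limma's voom placed 0. Tppp3 itself, the check of the labels, stood at 18.7, 22.2 and 28.02 CPM in the controls and 53.7, 36.5 and 41.8 CPM with its vector (fold 1.91, edgeR adjusted p = 0.639). It was 1 of the 2 genes that DESeq2's Wald test called higher, and limma's voom did not call it. The groups did not overlap, as for 6.92% of all tested genes in that direction. CPM here are counts scaled to a common library size after TMM scaling. Gnat1, the rod transducin gene and a marker of the retina's main cell type, averaged 12036 CPM in the controls and 11646 CPM with the Tppp3 vector.

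Fn1 was lower in all 3 libraries with the Tppp3 vector than in any control, as 7.02% of all tested genes were. Control replicates 1, 2 and 3 held 159.7, 148 and 173 CPM of Fn1, and Tppp3 replicates 1, 2 and 3 held 109.6, 103 and 102 CPM. The controls spread over a wider range than the Tppp3 libraries, and a clear gap lay between the groups. The fitted log2 fold change was -0.61 ± 0.063 (SE), with a 95% interval from -0.75 to -0.47, so that Fn1 fell by 34.4% with the Tppp3 vector (edgeR adjusted p = 0.0138, the value it was chosen by). The annotation places the antisense gene Apol7d across 292 of the 11685 exon bases of Fn1, and the library kit did not mark strand. In the order of p Fn1 stood first. Krt7, an epithelial keratin, was the other gene inside the threshold (adjusted p = 0.0321), and Itgb4, a laminin-binding integrin chain, was the nearest outside it (adjusted p = 0.0650). The Fn1 difference missed the threshold when control replicate 3 was left out (adjusted p = 0.112), and likewise for Tppp3 replicate 2 (0.0642) or 3 (0.148). It also missed it with sex, read from Y-linked counts, as a covariate (0.0885) and with limma's voom (0.184), while the fold change stayed between -0.66 and -0.55 over all 15 alternatives.

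**Figure D1:**
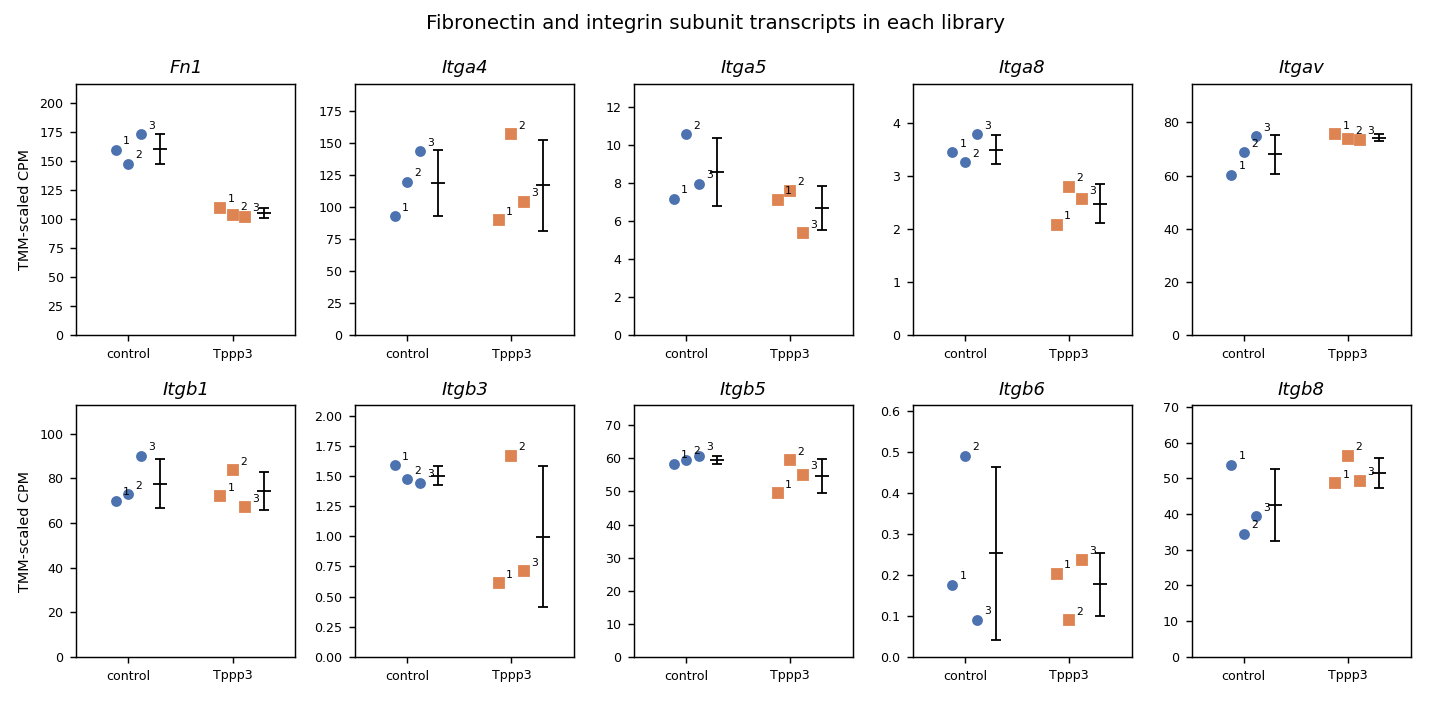
TMM-scaled CPM of Fn1 and the 9 integrin genes in each library, with circles for control AAV2, squares for Tppp3 AAV2, the replicate number beside each point, and bars for the mean ± SD (n = 3 per group). Fn1 and Itga8 are the panels in which the groups do not overlap, and the axis of each panel starts at 0 with its own scale.

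The summed level of the 14 listed surface and ciliary epithelium markers was 139.5 to 169.6 CPM in the controls and 94.7 to 119.9 CPM with the Tppp3 vector, and all 10 markers that were tested had a negative fold change (median -0.79, against 0.0030 over all genes tested). Of these 10, Krt7 passed the adjusted threshold. In edgeR 8 were lower at an unadjusted p under 0.05, beside 3.55% of all tested genes, while Krt18, the most abundant, stood at -0.083. The other 4, too low to be tested, had higher means with the Tppp3 vector, at 0.0410 and 0.735 CPM for Krt5, 0.273 and 0.462 for Krt12, 0.0295 and 0.222 for Krt15, and 0 counts in every control library and 0.364 CPM for Krt19. For Krt5, Krt15 and Krt19 Tppp3 replicate 3 held the most, at 1.80, 0.475 and 0.997 CPM. Tppp3 replicates 1 and 2 held at most 0.356 CPM of these genes. The list was chosen with the fall of Krt7 known. In whole tissue, fewer cells of a type and less RNA per cell cannot be told apart, and the part of epithelial cells in the Fn1 difference was not tested. Fn1 is also made by vascular cells, fibroblasts and pigment epithelium. Summed endothelial markers ranged from 452 to 479 CPM in the controls and from 407 to 572 CPM with the Tppp3 vector, summed mural markers from 135.0 to 148.7 and from 134.6 to 156.7 CPM, and summed fibroblast and scleral markers from 38.2 to 108.3 and from 83.5 to 116 CPM. Summed pigment epithelium markers ranged from 509.5 to 578 and from 529 to 686 CPM. The endothelial, mural, fibroblast and pigment epithelium sums overlapped between the groups. Most of the pigment epithelium sum was Trpm1, also a bipolar cell gene, at 395 to 466 and 452 to 507 CPM. The sum thus says little of the rest of the list. Rpe65 ranged from 1.23 to 19.4 and from 2.12 to 17.04 CPM, and Mitf from 9.94 to 10.96 and from 11.06 to 11.5 CPM. In the endothelial sum Kdr and Flt1 averaged 229 and 114 CPM in the controls and 249 and 116 CPM with the Tppp3 vector. Both together made up most of that sum, which likewise says little of the rest of its list. Of the 16 endothelial genes 11 had a negative and 5 a positive log2 fold change in edgeR. Of all 14750 tested genes, 7248 were negative and 7502 positive. No gene of the other 11 marker lists than the epithelial one passed in edgeR, DESeq2's Wald test or limma's voom. In edgeR 1 Müller glia marker was higher and 1 endothelial marker lower at an unadjusted p under 0.05, beside 3.67% and 3.55% of all tested genes. The median log2 fold change was -0.21 for 16 endothelial, -0.064 for 13 mural and 0.19 for 10 fibroblast and scleral genes. It was 0.71 for 12 pigment epithelium genes, all 12 of them positive. At the same unadjusted p, limma's voom gave 5 pigment epithelium, 4 fibroblast and scleral and 2 Müller glia markers as higher. It gave 1 endothelial marker as lower, beside 681 genes higher and 569 lower of all 14750 tested. DESeq2's Wald test gave 1 fibroblast and scleral and 1 Müller glia marker as higher. Beside them stood 351 genes higher and 262 lower. The median log2 fold change in edgeR was 0.070 for 14 Müller glia, -0.099 for 7 astrocyte and -0.17 for 13 microglia genes. It was 0.018 for 6 blood and platelet, 0.96 for 7 lens, -0.076 for 12 rod and 0.0069 for 13 ganglion cell genes.

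None of the 8 integrin members that could be tested passed the adjusted threshold, and 0 of 8 had an unadjusted p under 0.05 in edgeR's test, beside 7.23% of all genes in either direction. DESeq2's Wald test called 0 of the 8, though it gave Itgb3 no adjusted p. It gave 1 of the 8 as higher at an unadjusted p under 0.05. Beside it stood 351 genes higher and 262 lower of all 14750 tested. With limma's voom 0 were called, and 1 was higher and 2 lower at that p, beside 681 and 569 of all genes. The log2 fold changes of the 8 integrin members in edgeR ran from -0.58 to 0.28 with a median of -0.094, and 6 were negative and 2 positive. The lowest adjusted p among them was 0.707. Over the 15 alternatives no integrin member passed either.

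The alpha chains of the RGD group are described first. Itga5, whose product pairs with beta1 as the classical fibronectin receptor and drives fibril assembly, held 7.16, 10.6 and 7.95 CPM in the controls and 7.11, 7.58 and 5.36 CPM with the Tppp3 vector. The groups overlapped, and Tppp3 replicate 3 was the lowest library. The log2 fold change of Itga5 was -0.37 ± 0.19 (SE), with a 95% interval from -0.78 to 0.051 (edgeR adjusted p = 0.730). It was -0.18 without control replicate 2 and -0.23 without Tppp3 replicate 3. The raw counts of Itga5 lay between 81 and 172, which limits the precision.

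Itga8, whose product pairs with beta1 and is known from kidney development and contractile cells, held 3.45, 3.26 and 3.80 CPM in the controls and 2.08, 2.80 and 2.56 CPM with the Tppp3 vector. Every Tppp3 library lay below every control library. Its log2 fold change was -0.49 ± 0.23 (SE), with a 95% interval from -1.003 to 0.023 (edgeR adjusted p = 0.707). Of the 8 integrin members tested, Itga8 was the 1 whose groups did not overlap, beside 7.02% of all tested genes that were lower in this way and 6.92% that were higher. The annotation places an antisense transcript, E030013I19Rik, across 372 of the 7368 exon bases of Itga8.

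Itgav, whose product is the alpha chain shared by several vitronectin and fibronectin receptors and by activators of latent TGF-beta, held 60.4, 68.8 and 74.7 CPM in the controls. The Tppp3 libraries held 75.7, 73.7 and 73.4 CPM of Itgav and lay close together. The ranges overlapped through control replicate 3, and the log2 fold change was 0.13 ± 0.074 (SE), with a 95% interval from -0.035 to 0.29 (edgeR adjusted p = 0.767). Without control replicate 1 it was 0.047, and without control replicate 3 it was 0.20. The antisense transcript Gm13684 lies across 634 of the 10744 exon bases of Itgav.

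Itga4, whose product binds the LDV site and the endothelial adhesion molecule VCAM-1 and is known best from leukocytes, varied more within the groups than between them. It held 92.9, 119.9 and 144 CPM in control replicates 1, 2 and 3 and 90.0, 157 and 104 CPM in Tppp3 replicates 1, 2 and 3. Control replicate 1 and Tppp3 replicates 1 and 3 were low and the other 3 libraries high. The log2 fold change of Itga4 was -0.020 ± 0.30 (SE), with a 95% interval from -0.82 to 0.78 (edgeR adjusted p = 0.993). It was positive, at 0.14, when control replicate 3 was left out, and at 0.13 and 0.056 when Tppp3 replicate 1 or 3 was.

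The count of Itga4 is uncertain, because its exons overlap those of Cerkl, a ceramide kinase-like gene of the retina, on the opposite strand. The overlap covers 1124 of the 13978 exon bases of Itga4 in GENCODE M21 (8.04%), and without strand the reads of the overlap cannot be told apart. Cerkl held 23.0, 27.9 and 30.5 CPM in the controls and 19.7, 30.2 and 16.05 CPM with the Tppp3 vector. Its counts were below those of Itga4 in every library. The summed level of 13 microglia markers was 158, 257 and 239 CPM in control replicates 1, 2 and 3 and 170.5, 275 and 146 CPM in Tppp3 replicates 1, 2 and 3, low and high in the same libraries as Itga4. That split was not particular to microglia. Clu, of the Müller glia list, held 713, 1137 and 1191 CPM in the controls and 806, 1480 and 684 CPM with the Tppp3 vector. Gfap, of the astrocyte list, held 39.6, 98.4 and 97.2 CPM and then 74.4, 109 and 32.9 CPM, while the Müller glia marker Glul did not split so. The pigment epithelium gene Rpe65 went the other way from Itga4, with 19.4, 1.23 and 1.36 CPM in the controls and 14.2, 2.12 and 17.04 CPM with the Tppp3 vector. With the level of pigment epithelium markers as a covariate, the log2 fold change of Itga4 was 0.31 (adjusted p = 0.683). The part of these cells, and of Cerkl, in the spread of Itga4 was not tested.

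**Figure D2:**
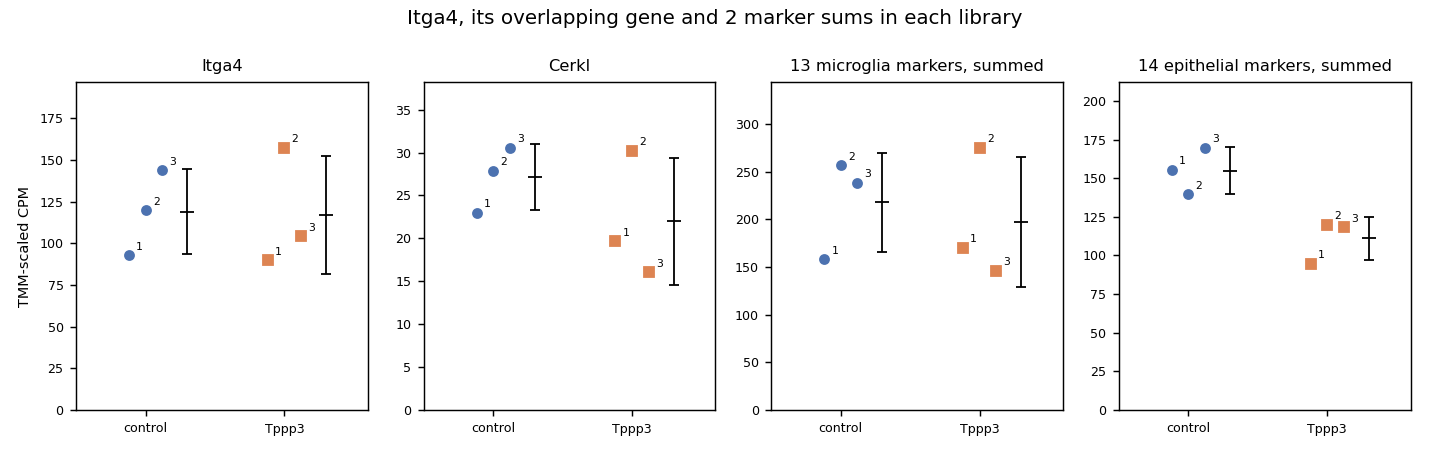
TMM-scaled CPM of Itga4, of the overlapping gene Cerkl, and of the sums of 13 microglia and 14 epithelial markers in each library, with circles for control AAV2, squares for Tppp3 AAV2, replicate numbers beside the points and bars for the mean ± SD (n = 3 per group). Itga4 and the microglia sum are low in control replicate 1 and in Tppp3 replicates 1 and 3, while the epithelial sum is lower in all 3 Tppp3 libraries than in any control library.

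Among the beta chains, Itgb1, the common partner of alpha4, alpha5, alpha8 and alphaV, held 70.01, 72.8 and 90.2 CPM in the controls and 71.9, 83.7 and 67.1 CPM with the Tppp3 vector. The groups overlapped almost fully. Its log2 fold change was -0.063 ± 0.12 (SE), with a 95% interval from -0.33 to 0.21 (edgeR adjusted p = 0.937), and it was 0.055 without control replicate 3 and 0.0035 without Tppp3 replicate 3.

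Itgb5, a partner of alphaV that in the eye is known for the daily uptake of photoreceptor tips by pigment epithelium, held 58.4, 59.6 and 60.8 CPM in the controls and 49.5, 59.4 and 55.1 CPM with the Tppp3 vector. Tppp3 replicate 1 was the lowest library, and Tppp3 replicate 2 lay inside the narrow range of the controls. The log2 fold change of Itgb5 was -0.12 ± 0.073 (SE), with a 95% interval from -0.28 to 0.036 (edgeR adjusted p = 0.767). It was -0.062 without Tppp3 replicate 1 and -0.19 without Tppp3 replicate 2.

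Itgb8, a partner of alphaV that is known mainly for releasing active TGF-beta in the developing brain and retina, held 53.8, 34.5 and 39.3 CPM in the controls and 48.7, 56.3 and 49.3 CPM with the Tppp3 vector. Control replicate 1 stood apart from the other controls and within the range of the Tppp3 libraries. The log2 fold change of Itgb8 was 0.28 ± 0.17 (SE), with a 95% interval from -0.13 to 0.69 (edgeR adjusted p = 0.783). Without control replicate 1 it was 0.48 (edgeR adjusted p = 0.205), and without control replicate 2 it was 0.14. Control replicate 1 and Tppp3 replicate 2 were the libraries with high Y-linked counts. With sex, read from those counts, as a covariate, the log2 fold change of Itgb8 was 0.29 (edgeR adjusted p = 0.738).

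The beta chains Itgb3 and Itgb6 were close to the limit of detection. Itgb3, the partner of alphaV in activated vessels and of the platelet alpha chain, gave 18, 24 and 16 counts in the controls and 12, 37 and 15 with the Tppp3 vector, or 1.59, 1.48 and 1.45 CPM against 0.610, 1.67 and 0.712 CPM. Tppp3 replicate 2 was the highest of all libraries and the other Tppp3 libraries were the lowest. The log2 fold change of Itgb3 was -0.58 ± 0.42 (SE), with a 95% interval from -1.51 to 0.35 (edgeR adjusted p = 0.806), and -1.17, -0.33 and -0.39 when Tppp3 replicate 2, 1 or 3 was left out. Itgb6, an epithelial partner of alphaV, had 2, 8 and 1 counts in the controls and 4, 2 and 5 with the Tppp3 vector, too few to be tested. A level of 3 counts, the limit that a count of 0 would allow, corresponds to 0.135 to 0.271 CPM in these libraries, for counting error only, and no difference in Itgb6 was detectable at this depth.

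**Figure D3:**
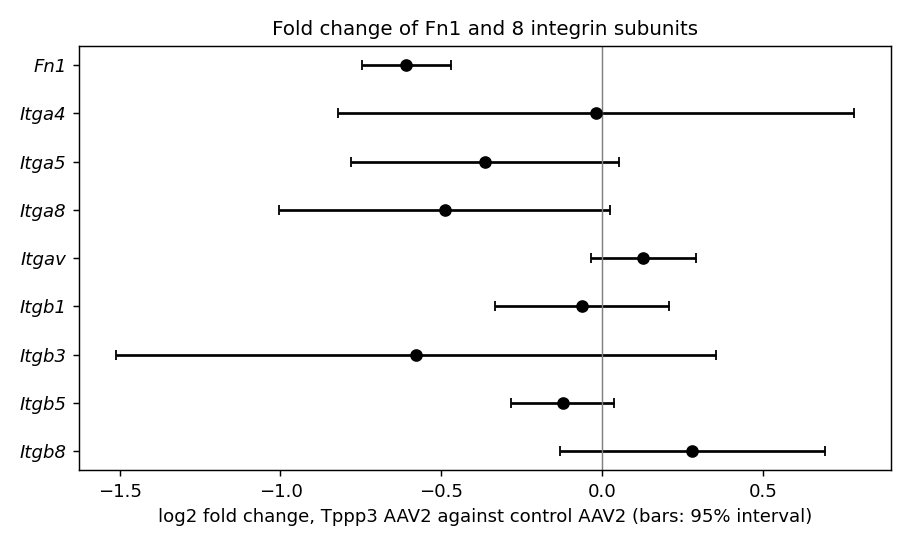
Log2 fold change of Fn1 and the 8 tested integrin genes, Tppp3 AAV2 against control AAV2 (x axis), with bars for the 95% interval of each gene and a grey line at 0. The interval of Fn1, which was chosen by its adjusted p in this fit, lies wholly below 0. Those of all 8 integrin genes cross it.

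Levels of different genes were compared per kilobase of the longest protein-coding transcript in GENCODE M21, as a description. In the controls, Itgb1, Fn1 and Itgb5 shared the top of the order at 20.4 ± 2.87, 19.3 ± 1.53 and 18.2 ± 0.365 CPM per kb (SD, n = 3), and their ranges overlapped. Itga4 followed at 12.2 ± 2.61 CPM per kb and Itgav at 9.64 ± 1.02, again with overlapping ranges. Itgb8 stood at 5.06 ± 1.199 CPM per kb, Itga5 at 1.95 ± 0.407, Itga8 at 0.602 ± 0.047, Itgb3 at 0.260 ± 0.0133 and Itgb6 at 0.0526 ± 0.0440. From Itgav downward no range touched that of the next gene, over all 6 libraries.

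With the Tppp3 vector the place of fibronectin in that order was another one, which restates the fall that Fn1 was chosen by. Fn1 held 12.2 to 13.2 CPM per kb, below the ranges of Itgb1 (17.6 to 21.9) and Itgb5 (15.1 to 18.1), inside that of Itga4 (9.21 to 16.1) and above that of Itgav (10.4 to 10.7). The order of the integrin genes among themselves by group mean was the same in both groups. Itga5, the chain of the classical receptor, stood at 1.53 ± 0.266 CPM per kb with the Tppp3 vector (SD, n = 3), far below Itgav at 10.5 ± 0.170.

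**Figure D4:**
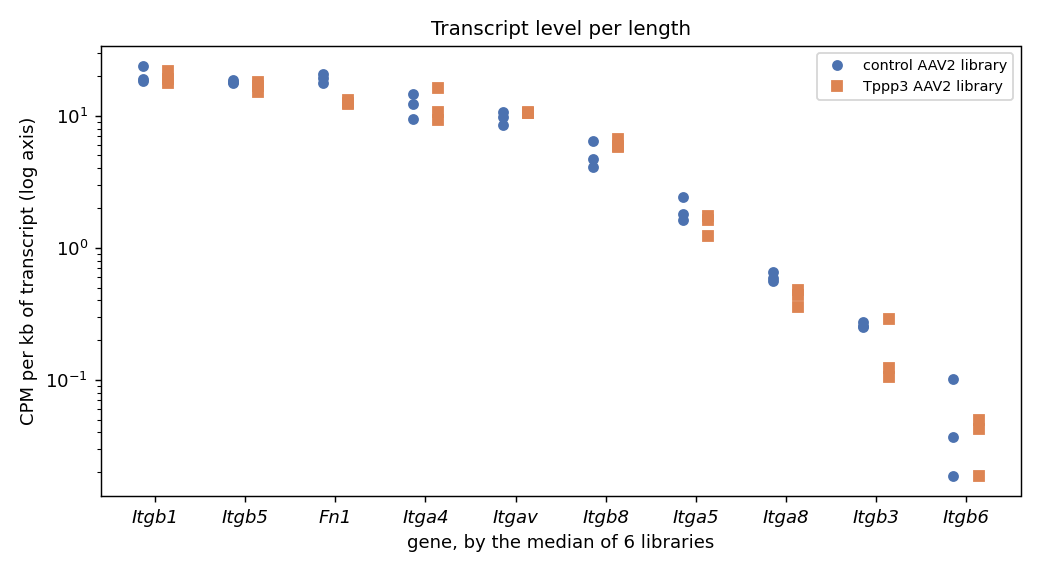
CPM per kb of transcript (log axis) of the 10 members, ordered by their median over 6 libraries, with a circle for each control AAV2 library and a square for each Tppp3 AAV2 library. Fn1, chosen by its fall in these libraries, lies with Itgb1 and Itgb5 in the controls and below both in the Tppp3 libraries. Itga5, Itga8, Itgb3 and Itgb6 lie under 2.5 CPM per kb.

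The make-up of each chain type was then compared. Of the summed level per kb of the 5 beta chains, Itgb1 made up 46.3 ± 3.71% in the controls and 45.8 ± 2.02% with the Tppp3 vector, Itgb5 41.5 ± 2.096% and 39.3 ± 1.99%, and Itgb8 11.6 ± 2.92% and 14.4 ± 0.162% (SD, n = 3 per group). Itgb3 and Itgb6 stayed under 1% in every library. Of the 4 alpha chains, Itga4 made up 49.7 ± 3.11% and 48.3 ± 7.08%, with the limit on its count given above, and Itgav 39.8 ± 2.12% and 43.7 ± 6.55%. Itga5 made up 8.08 ± 1.56% in the controls and 6.27 ± 1.04% with the Tppp3 vector. Each share named so far overlapped between the groups, whereas that of Itga8 was 2.24 to 2.92% in the controls and 1.64 to 1.94% with the Tppp3 vector.

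Other ligands of the same integrins were measured too. Of 21 tested genes of that list, 0 were called by edgeR, while DESeq2's Wald test called 1, Thbs1, as lower. At an unadjusted p under 0.05 edgeR gave 2 lower and 1 higher, beside 3.55% and 3.67% of all tested genes. The median log2 fold change of the list in edgeR was -0.018. Thbs1, which encodes the matricellular protein thrombospondin-1, held 51.8, 31.6 and 41.03 CPM in the controls and 20.7, 22.4 and 26.9 CPM with the Tppp3 vector (log2 fold change -0.82, edgeR adjusted p = 0.639). Spp1, which encodes the RGD protein osteopontin, held 33.2, 28.6 and 29.1 CPM and then 21.7, 19.9 and 24.0 CPM (-0.47, edgeR adjusted p = 0.550). Vtn, which encodes vitronectin, a ligand of the alphaV integrins, was more abundant at 726 ± 21.8 and 671 ± 54.2 CPM (SD, n = 3 per group), at -0.11 on the log2 scale (edgeR adjusted p = 0.759). Adam9, a membrane protease that also binds integrins, stood at 0.13 (edgeR adjusted p = 0.649). The groups did not overlap for these 4 of the 21 genes, with Thbs1, Spp1 and Vtn lower and Adam9 higher, beside 7.02% and 6.92% of all tested genes.

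Genes of fibronectin fibril assembly, matrix partners and turnover showed 0 calls among 33 tested with edgeR and 0 with DESeq2's Wald test or limma's voom. At an unadjusted p under 0.05 edgeR gave 2 higher and 0 lower, beside 3.67% and 3.55% of all tested genes. The median log2 fold change of the list was -0.028.  Ltbp1, whose product anchors latent TGF-beta to fibronectin and fibrillin, held 14.9, 11.4 and 10.1 CPM in the controls and 18.1, 15.3 and 16.9 CPM with the Tppp3 vector (log2 fold change 0.47, edgeR adjusted p = 0.639). Fbln5, whose product helps build elastic fibres, held 2.56, 1.91 and 1.81 CPM and then 3.35, 3.16 and 3.42 CPM (0.66, edgeR adjusted p = 0.648). These were the 2 of 33 genes whose groups did not overlap, a share near the 6.92% of all tested genes that were higher in this way. The collagen chain Col1a2 had a log2 fold change of 0.83 (edgeR adjusted p = 0.717), and its groups overlapped.

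The intracellular side of adhesion showed no called gene either. Of 41 tested adaptors and kinases of focal adhesions, edgeR called 0, as did DESeq2's Wald test and limma's voom. At an unadjusted p under 0.05 edgeR gave 2 higher and 0 lower, beside 3.67% and 3.55% of all tested genes. The median log2 fold change of the list was 0.036. Rap1a, a small GTPase that brings talin to integrins, held 35.1, 36.7 and 35.5 CPM in the controls and 40.4, 42.9 and 43.01 CPM with the Tppp3 vector (log2 fold change 0.24, edgeR adjusted p = 0.639). Shc1, an adaptor of receptor signalling, held 22.5, 23.0 and 22.96 CPM and then 24.9, 27.6 and 25.7 CPM (0.19, edgeR adjusted p = 0.673). Rap1a, Shc1, Ptk2b and Crkl were the 4 of 41 genes higher in every Tppp3 library than in any control, as were 6.92% of all tested genes, and the last 2 were named after their values were seen. Nedd9 and Grb2, also adaptors, had log2 fold changes of 0.33 and 0.14 (edgeR adjusted p = 0.717 for each).

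Response genes of TGF-beta, SRF and YAP, pathways that are known to control Fn1, gave 0 calls among 22 tested in edgeR, DESeq2's Wald test and limma's voom. The median log2 fold change of the list in edgeR was -0.051. At an unadjusted p under 0.05 edgeR gave 2 lower and 1 higher, beside 3.55% and 3.67% of all tested genes. The lower 2 were the cytoplasmic actins, Actg1 with 727, 585 and 609.6 CPM in the controls and 560.3, 529 and 476 CPM with the Tppp3 vector (log2 fold change -0.30, edgeR adjusted p = 0.648), and Actb at -0.20 (edgeR adjusted p = 0.688). The groups did not overlap for Actg1 and did for Actb. The higher one was Yap1, a transcriptional coactivator, at 0.21 (edgeR adjusted p = 0.673), with overlapping groups.

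The genes whose pattern over the 6 libraries was most like that of Fn1 were Mcm2, Krt7, Itgb4, Aldh1l2, Pes1, Eif3f, Maoa and Pycrl, among 11821 others with a mean of at least 5 CPM. Likeness was Pearson's r of log2 CPM, given as a description, and it ranged from 0.980 to 0.996 for these 8. The libraries fell into 2 separate groups in Fn1, so r carries the group difference, and the 8 genes were chosen for it. Mcm2, a subunit of the replicative helicase, held 17.9, 16.04 and 18.4 CPM in the controls and 13.1, 12.4 and 12.3 CPM with the Tppp3 vector.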

How the data were processed

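Poly(A) RNA of whole retina was sequenced as paired reads, without strand information, per the labels' protocols. The authors deposited raw total counts per gene symbol, per the file headers. The build is GRCm39 (mm39), per the submitters' processing notes. For the aligner, counting tool and annotation release, the sources used here name none. Columns were used where their names matched a sample title. Replicates 1 to 3 of each group had one. No column name matched control replicate 4, which was not analysed here, and 1 further column, named as a Tppp3 replicate 4, matched no title and was left out. The labels' protocol counts 4 Tppp3 retinas and 3 controls, as the columns do, and the sample labels the reverse, and groups follow the sample labels. Pairs of libraries within a group differed by a chi-square of 3.99 to 13.4 per gene, above sampling noise.

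Genes were filtered by edgeR's filter on expression by group, scaled by TMM and tested with edgeR's quasi-likelihood F test (robust, two-sided, Benjamini-Hochberg over 14750 genes, threshold 0.05), using edgeR 4.0.16 in R 4.3.3. DESeq2 1.42.0 and limma 3.58.1 served as alternatives. Standard errors are the fold change over the root of F, and 95% intervals follow from them with the moderated degrees of freedom. The fit was tested on simulated data. Log2 CPM used a prior count of 2. Transcript lengths, exon overlaps and the Fn1 sites come from GENCODE M21 (GRCm38), another build than that of the counts, so no coordinates are printed. The alternatives are those in the section on processing.

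The members and the 17 gene lists were chosen with earlier results of these data known. Named genes were the members, Tppp3, the 4 genes of smallest p in each of 5 pathway lists, the 8 genes most like Fn1 (1 predicted gene or pseudogene was passed over), and the 2 most abundant genes of marker lists. Cerkl, Rpe65, Mitf, Clu and single epithelial keratins were named after their values were seen. All 279 listed symbols had a row. Some genes selected by this rule are not reported here.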

Additional observations from a re-analysis of the deposited data

How the results depend on the processing

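Fn1 kept its direction under all 15 alternatives, which adds no support, because it was chosen by its adjusted p in these same libraries. Its log2 fold change missed the threshold with limma's voom (-0.60) and with sex as a covariate (-0.61), and with single libraries left out it lay between -0.66 and -0.55. At an adjusted p under 0.05, 0 of the 10 members were then called lower with voom or with sex as a covariate. The same held without control replicate 3 or Tppp3 replicates 2 or 3 (0 to 1 called with single libraries left out), against 1 in the main fit. Genes called lower over the whole table numbered 2 in the main fit, with DESeq2 size factors and with a filter at a mean of 1 CPM. They numbered 12 with DESeq2's Wald test and 6 with no low-count filter. They numbered 1 with the pigment epithelium covariate, with the replicate block and after thinning to equal depth. They numbered 0 with voom and with sex as a covariate, and 0 to 1 with single libraries left out. Genes called higher numbered 0 in the main fit, 2 with DESeq2's Wald test, 1 with the pigment epithelium covariate, and 0 to 2 with single libraries left out. Itga4 changed sign to 0.31 and Itgb1 to 0.083 with the pigment epithelium covariate, and with single libraries left out Itga4 ranged from -0.29 to 0.14 and Itgb1 from -0.16 to 0.055. The cause of these changes was not tested.

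The titles give both groups replicate numbers, but same-numbered libraries did not deviate together (r of deviations from the group means -0.029, 0.051 and -0.26 for numbers 1, 2 and 3). With 3 libraries per group these values cannot show whether same-numbered libraries were handled together. With the replicate block, Fn1 stood at -0.61 (edgeR adjusted p = 0.0399) and 1 gene was called lower in place of 2. Depth limits Itgb3 and Itgb6, with at most 37 and 8 counts in a library.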

Other observations

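Integrin chains that are not among the 10 members were measured in the same libraries, most of them receptors for laminin, collagen or cell surface ligands. Of 17 such genes 16 were tested, and edgeR called 0, while DESeq2's Wald test called 1, Itgb4, as lower. At an unadjusted p under 0.05 edgeR gave 2 lower and 0 higher, beside 3.55% and 3.67% of all tested genes. Itgb4, the beta chain of the laminin receptor in hemidesmosomes of epithelia, held 12.02, 11.6 and 12.7 CPM in the controls and 6.61, 5.68 and 6.36 CPM with the Tppp3 vector (log2 fold change -0.96, edgeR adjusted p = 0.0650). It is also 1 of the 14 epithelial markers. Itga3, the alpha chain of another laminin receptor, held 35.8, 36.5 and 41.6 CPM and then 33.8, 33.1 and 31.3 CPM (log2 fold change -0.21, edgeR adjusted p = 0.648). Itga6, the partner of the beta4 chain, overlapped between the groups at 11.2 ± 1.33 and 9.94 ± 1.67 CPM (SD, n = 3 per group), at -0.18 on the log2 scale (edgeR adjusted p = 0.838). Itga2b, the platelet alpha chain that binds fibrinogen and fibronectin, averaged 1.45 ± 0.199 and 0.943 ± 0.279 CPM (-0.62, edgeR adjusted p = 0.767).

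The leukocyte chains varied within the groups, as Itga4 did. Itgam, the alpha chain of complement receptor 3 on microglia and macrophages, held 7.96, 24.8 and 19.7 CPM in control replicates 1, 2 and 3 and 18.9, 19.7 and 9.21 CPM in Tppp3 replicates 1, 2 and 3. Itgb2, its partner, held 4.33, 8.60 and 10.6 CPM and then 5.44, 9.83 and 4.51 CPM. Vcam1, the endothelial ligand of the alpha4 integrins, held 18.4, 35.8 and 57.3 CPM and then 49.1, 59.3 and 20.4 CPM. Control replicate 1 was the lowest control and Tppp3 replicate 2 the highest Tppp3 library for each of Itgam, Itgb2 and Vcam1. These genes were named after their values were seen.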
